A study of Homo sapiens with 24 samples.

Results

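The genes described here are the potassium channel genes of T/C-28a2 cells, an immortalised human chondrocyte line: every protein-coding gene whose symbol begins with KCN, matched by symbol to the Ensembl identifiers of the count tables. The rule found 97 genes among 62703 identifiers, and another 27 KCN-named identifiers were left out because they are not annotated as protein-coding. Of the 97 genes, 55 were expressed at a level that could be tested, and 46 of these (83.6%) were called different in at least 1 of 7 pairwise comparisons, beside 77.7% of all genes tested. KCNA3 and KCNQ3 had the largest ratio of the highest to the lowest group mean among genes with reads in every group, over lowest means of a few reads. KCNE4, KCNJ4, KCNMA1 and KCNN1 differed in the most comparisons.

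Potassium channels let K+ leave or enter the cell down its electrochemical gradient and so set the membrane potential, and in cells that swell or shrink the efflux of K+ together with Cl- is a main route of volume loss. They fall into families by what opens them: membrane voltage (KCNA to KCND, KCNG, KCNH, KCNQ, KCNS), intracellular Ca2+ or Na+ (KCNMA1, KCNN, KCNT), inward rectification (KCNJ), and background leak through tandem-pore channels (KCNK). Auxiliary subunits (KCNAB, KCNE, KCNIP, KCNMB) bind the pore-forming proteins and change their gating or their number at the surface. Chondrocytes live in a matrix whose osmolarity changes with load, and Ca2+-activated, voltage-gated, ATP-sensitive and leak K+ currents have all been recorded in them.

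RNA-seq was available for 24 libraries, 4 in each of 6 groups. WT Ctr and WT Sor are parental cells in isotonic medium or in medium with 100 mM sorbitol, a sugar alcohol that raises osmolarity, for 7 days. WNK2 trans Ctr and WNK2 trans Sor are parental cells transfected with a plasmid that carries wild-type WNK2, a kinase of the osmotic stress response, and then kept in the same media. Their comparators were untransfected, so the plasmid and the transfection procedure cannot be told apart. WNK2- Ctr and WNK2- Sor are cells from which CRISPR/Cas9 removed exon 2 of WNK2, which holds its start codon. They were expanded from single cells, so that the deletion and the history of a clone cannot be told apart. The study describes the 4 libraries of a group as biological replicates and does not say which cultures were run together, and p-values measure the spread between these libraries.

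Library totals ran from 14153002 to 25664619 reads, and every WNK2- library was deeper than every WT Ctr and WT Sor library. The targeted gene, WNK2, went against 2 of the labels. Isotonic libraries labelled WT carried 1217 to 2568 of its reads, whereas those labelled as transfected carried 163 to 290. Under sorbitol the transfected libraries reached 2237 to 3739 and the WT libraries 266 to 314. Deleted cells stayed at 440 to 501 without sorbitol and 322 to 503 with it. The labels are kept below. Results that rest on one of the 2 isotonic groups of WT genotype were also computed with the other in its place, and the counts, and for the genes named the values that this moved by over 1.5 times or that lost their call, stand beside them. Reads over the gene do not test the deletion, which removes 1 exon only. Library WT Ctr 2 was the least like its own group, with a mean correlation across genes of 0.959 against 0.963 to 0.99 for the other 23. Of 16 chondrocyte markers, 11 could be tested. The summed level of all 16 was 97.4 to 173 CPM (the gene's reads scaled to library size) in the 4 groups of WT genotype and 29.2 to 33.3 CPM in both WNK2- groups. HAPLN1 made up much of this sum, with a mean of 57.7 CPM over the 24 libraries, and the next marker, COL9A3, had 7.72. SOX9, a defining marker, was listed at 0 in all 24 libraries. The part of this marker difference in the results on WNK2- cells was not tested.

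Expression was called where a gene passed edgeR's filter on low counts. Under that filter 23 of 40 voltage-gated genes, 8 of 16 inward rectifiers, 8 of 15 tandem-pore genes and 9 of 18 auxiliary genes were kept. All 7 Ca2+- or Na+-activated genes (KCNMA1, KCNN and KCNT) were kept, and KCNU1, placed by its symbol in the same group of 8, was not. A mean of at least 1 CPM was reached by 38 of the 97 genes, at least 10 reads in every library by 27, and at least 1 read in any library by 85. With the counts thinned at random to the smallest library total, the filter kept 51. The lowest genes kept by average log2 CPM were KCNJ16 (-2.48), KCNT2 (-1.72), KCNK3 (-1.27) and KCNK9 (-1.22), and the highest left out were KCNE1B (-1.46), KCNJ15 (-1.60), KCNF1 (-1.66) and KCNIP1 (-1.68). The filter asks for 4 libraries above a low CPM value, and some genes met it through the groups in which they were high: KCNJ16 through WT Sor alone, KCNT2 and KCNK9 not without their highest group, and KCNQ3 and KCNN2 not without the WNK2- libraries, while no WNK2- library of KCNA2 or KCNA3 reached the value. Differences between those groups follow in part from the filter and are given as log2 values and SE without a test, though the calls of KCNA2, KCNA3, KCNN2 and KCNQ3 between WNK2- and WT cells were also made with no filter on low counts. Among the 42 genes not tested, 30 had between 1 and 139 reads over all libraries.

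The other 12 genes were listed at 0 in all 24 libraries: KCNA1, KCNA6, KCNA10, KCNE2, KCNE3, KCNJ13, KCNK12, KCNK18, KCNMB1, KCNRG, KCNS2 and KCNV1. Of 19856 protein-coding genes, 3132 (15.8%) were likewise at 0, and these included RPL15, RPL32 and RPS4X, ribosomal protein genes that every cell uses. A 0 in these tables is therefore given as a listing and not as absence of the RNA. All exonic bases of KCNA6 lie within GALNT8, and 66.8% of those of KCNRG within TRIM13, so reads there need not be assigned to the KCN gene.

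Levels were compared between genes per kilobase of exon (RPKM, which is CPM divided by the exon length in kilobases). KCNG1, a modifier of Kv2 channels, had the highest mean over 24 libraries at 6.35 RPKM. KCNJ14, an inward rectifier, followed at 4.39, KCNN4, the intermediate-conductance Ca2+-activated channel, at 3.41, and KCNMA1, the large-conductance BK channel, at 3.40. Of the KCNJ14 exonic sequence, 24.98% is shared with other genes. The order depends on the length used: KCNMA1 has 35644 exonic bases but a longest transcript of 12071 bases, and per base of the longest transcript it came first at 10.0 RPKM, with KCNG1 at 9.27. KCNG2, KCNK6, KCNQ5, KCNAB2 and KCNJ12 lay between 2.48 and 3.26 RPKM over all exons.

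**Figure D1:**
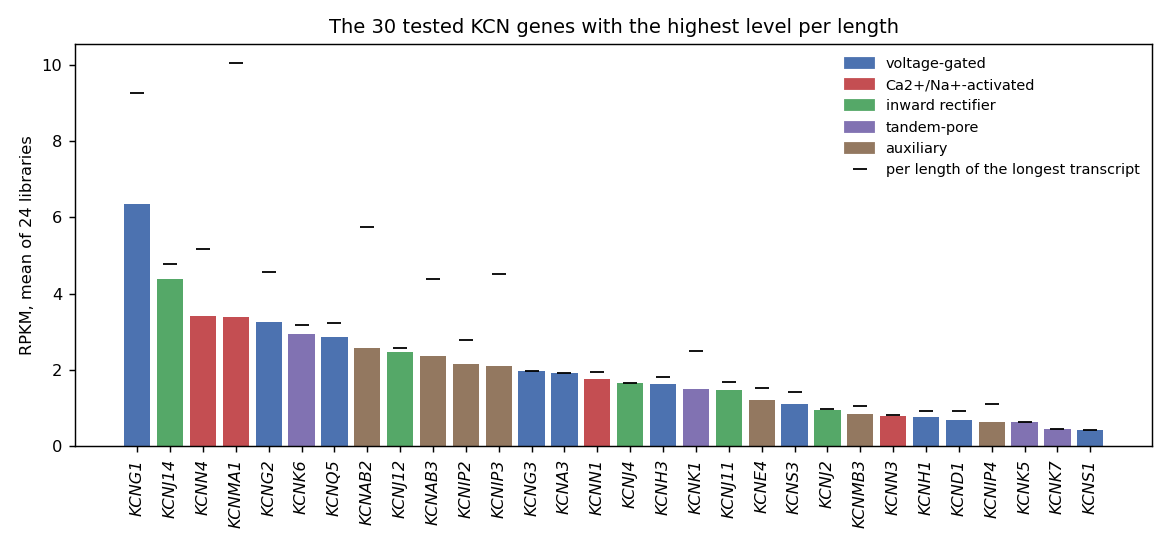
Bars give the mean RPKM over 24 libraries of the 30 tested KCN genes with the highest level per length of all exons, coloured by family; dashes give the same reads per length of the longest transcript. KCNG1 leads by exon length (6.35) and KCNMA1 by transcript length (10.0).

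Both the total of K+ channel reads and the part of KCNMA1 in it differed between groups. Summed over the 97 genes, reads in WT cells were 261 to 355 CPM without and 424 to 442 CPM with sorbitol. The ranges were 323 to 372 and 473 to 594 CPM in transfected cells, and 436 to 492 and 507 to 559 CPM in WNK2- cells. The share of these reads that came from KCNMA1 had a median of 7.90% in WNK2 trans Ctr, 16.5% in WT Ctr and 17.2% in WT Sor, and of 41.0% in WNK2 trans Sor, 35.0% in WNK2- Ctr and 37.7% in WNK2- Sor. The 3 groups with a high share did not overlap with the 3 with a low share.

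The 55 tested genes varied over the 6 groups to very different extents. The ratio of the highest to the lowest group mean was under 2 for 15 genes, 2 to 5 for 21, 5 to 10 for 10 and 10 or more for 7 (KCNA3 63.2, KCNQ3 55.9, KCNE4 20.9, KCNN2 19.8, KCNN1 15.6, KCNJ4 11.7 and KCNA2 10.3), and in KCNJ16 and KCNT2 the lowest group was at 0. Some of the largest ratios rest on low means, so their size is imprecise. As reads scaled to a common library size, the lowest mean was 2.67 in KCNA3, 3.28 in KCNQ3, 1.63 in KCNN2 and 2.87 in KCNA2. KCNG3 varied least (1.26), followed by KCNJ10, KCNIP2 and KCNJ14 (1.40). The highest group was WNK2 trans Ctr for 16 genes, WNK2 trans Sor and WNK2- Sor for 13 each, WT Sor for 9, and WT Ctr and WNK2- Ctr for 2 each.

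A gene was called in a comparison at an adjusted p under 0.05 in edgeR's quasi-likelihood test, adjusted over the 16600 genes tested. Sorbitol in WT cells called 15 of the 55 KCN genes (27.3%, 14 higher and 1 lower), beside 24.1% of all genes tested. By direction, 11.4% of all genes were called higher and 12.7% lower, and the median log2 fold change was 0.39 over the KCN genes and 0.04 over all. With the libraries labelled WNK2 trans Ctr as comparator 10 KCN genes were called, beside 15.1% of all genes. Of the 15 calls 5 were kept in the same direction with that comparator (KCNC4, KCNJ2, KCNMA1, KCNN4 and KCNJ16, the last of which met the filter through WT Sor alone). Without library WT Ctr 2 the count was 9, with the share of all genes not given here and nothing drawn from it. Sorbitol in WNK2- cells called 10 (6 higher, 4 lower), beside 14.9% of all genes (8.25% higher, 6.64% lower), and 20 of 46 (43.5%) beside 30.9% when only the compared groups were fitted. In transfected cells sorbitol called 31 (15 higher, 16 lower), or 56.4% beside 48% of all genes (24.3% higher, 23.7% lower), and 27 beside 39.2% with WT Ctr as comparator, with 23 of the 31 calls kept in the same direction and 1 turned (KCNE4). The 31 include KCNT2, which did not pass the filter without WNK2 trans Ctr, so that its fall follows in part from the filter. They also include KCNJ16, whose reads in WNK2 trans Sor came from library 4 alone.

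WNK2- cells differed from WT cells in 27 KCN genes in isotonic medium (14 higher, 13 lower), 49.1% beside 42.1% of all genes (20.7% higher, 21.5% lower), and 29 genes beside 47.7% with WNK2 trans Ctr in place of WT Ctr, with 21 of the 27 calls kept and none turned. Under sorbitol they differed in 29 (14 higher, 15 lower), 52.7% beside 46.3% (23.7% higher, 22.7% lower). Both counts include KCNA2, KCNA3, KCNN2 and KCNQ3, whose differences between these groups follow in part from the filter. The count under sorbitol also includes KCNJ16, which met the filter through WT Sor alone. Transfected cells differed from untransfected cells in 10 KCN genes in isotonic medium (8 higher, 2 lower), beside 12.5% of all genes (5.57% higher, 6.98% lower), in 6 without library WNK2 trans Ctr 4 (beside 8.79%) or without WT Ctr 3 (beside 9.86%), and in 4 of 46 beside 5.22% when only the compared groups were fitted. Under sorbitol they differed in 24 (8 higher, 16 lower), 43.6% beside 31.7% (16.1% higher, 15.5% lower). The 24 include KCNJ16, which met the filter through WT Sor alone. The response to sorbitol differed between WNK2- and WT cells in 5 KCN genes, 1 upward and 4 downward (9.09% beside 8.65%, with 3.99% and 4.66% of all genes by direction). It differed in 2 (beside 3.39%) with the comparators exchanged, in 3 when any 1 of 9 libraries was left out (share of all genes not given here), and in 9 of 53 beside 12.5% when only the 4 groups compared were fitted. Between transfected and untransfected cells it differed in 27, 9 upward and 18 downward (49.1% beside 35.5%, with 18.1% and 17.4% by direction), and in 6 beside 5.46% with the comparators exchanged. The 27 include KCNT2, which did not pass the filter without WNK2 trans Ctr. The 4 libraries of 1 group lay wholly above or below those of the other for 15 KCN genes with sorbitol in WT cells (25.7% of all genes tested), 17 in WNK2- cells (28.4%) and 24 in transfected cells (34.4%). They did so for 25 genes (36.9%) and 32 genes (53.9%) between WNK2- and WT cells without and with sorbitol, and for 10 (12.3%) and 24 (30.3%) between transfected and untransfected cells. No KCN gene was called in all 7 pairwise comparisons, 4 were called in 6 (KCNE4, KCNJ4, KCNMA1 and KCNN1), and 9 were called in none, among them KCNE1, KCNG3, KCNH6, KCNIP2, KCNJ6, KCNJ10, KCNK7 and KCNK9.

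**Figure D2:**
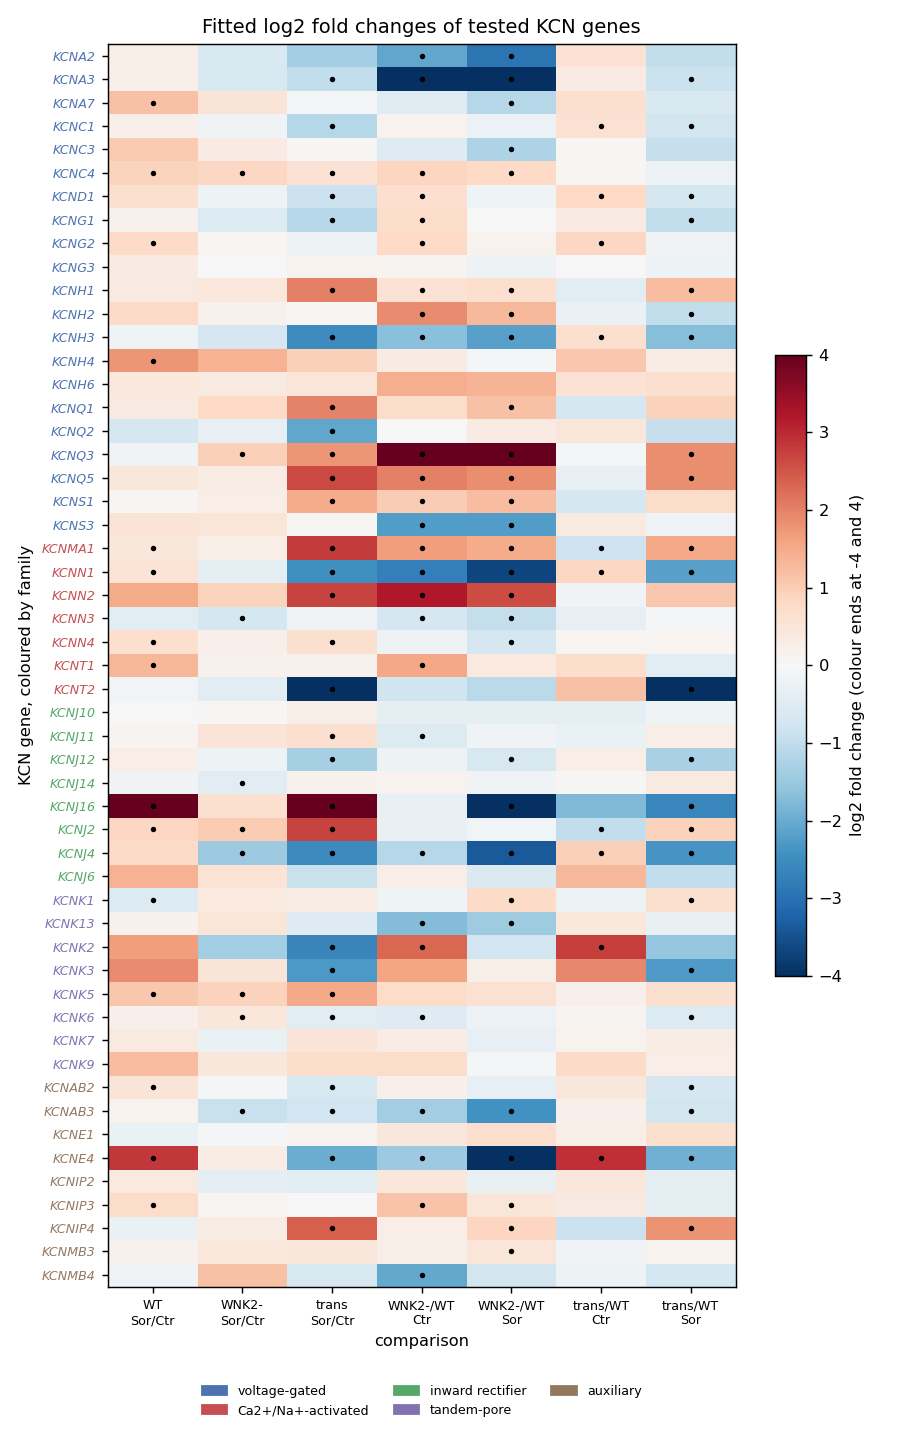
Each row is a tested KCN gene, coloured by family, and each column 1 pairwise comparison; colour gives the fitted log2 fold change (red higher, blue lower, ends at -4 and 4) and a dot marks an adjusted p under 0.05. Rows that are strong in both WNK2-/WT columns include KCNA3, KCNQ3 and KCNN1, whereas KCNE4 and KCNJ4 have opposite colours in the 2 trans/WT columns.

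The 3 sorbitol comparisons share no library, and 3 KCN genes were called higher in each of them: KCNJ2, the inward rectifier Kir2.1; KCNC4, the fast-inactivating channel Kv3.4; and KCNK5, the tandem-pore channel TASK-2, which carries volume-sensitive K+ current in several epithelia. That is 5.455% of the 55 genes, beside 2.38% of all genes tested, and none was called lower in all 3, beside 1.23%. With the other isotonic comparator KCNK5 was not called in WT cells, whereas KCNJ2 and KCNC4 kept their calls in WT and transfected cells. The share of all genes was not computed with that comparator. The 250 bases before the RefSeq start of these 3 genes (GRCh38.p14, strand of the gene) are printed because the genes moved together, with GGGCGG or its reverse complement CCGCCC, the core of a GC box, in capitals. KCNJ2 is at chr17:70169282-70169531 (plus strand), which lies inside the longer GENCODE 29 gene, KCNC4 at chr1:110210064-110210313 (plus), upstream of the GENCODE 29 gene, and KCNK5 at chr6:39229476-39229725 (minus).
KCNJ2: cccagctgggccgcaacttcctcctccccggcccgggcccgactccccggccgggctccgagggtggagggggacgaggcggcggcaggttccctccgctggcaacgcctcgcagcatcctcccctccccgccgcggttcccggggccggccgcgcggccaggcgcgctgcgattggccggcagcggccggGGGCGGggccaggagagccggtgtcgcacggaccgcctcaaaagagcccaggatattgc
KCNC4: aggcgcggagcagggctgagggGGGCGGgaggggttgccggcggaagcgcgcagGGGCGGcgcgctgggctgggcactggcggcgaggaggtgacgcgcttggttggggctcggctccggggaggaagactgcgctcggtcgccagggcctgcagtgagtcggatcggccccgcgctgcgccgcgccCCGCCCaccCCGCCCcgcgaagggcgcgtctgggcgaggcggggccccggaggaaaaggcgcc
KCNK5: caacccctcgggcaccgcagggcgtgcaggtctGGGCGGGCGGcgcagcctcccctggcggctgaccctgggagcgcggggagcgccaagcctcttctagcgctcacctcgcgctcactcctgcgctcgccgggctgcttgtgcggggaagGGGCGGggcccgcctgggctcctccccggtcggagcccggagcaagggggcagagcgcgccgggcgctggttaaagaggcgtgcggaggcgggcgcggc
All 3 stretches are rich in G and C (77.6%, 79.2% and 77.2%) and hold 32, 36 and 31 CpG dinucleotides, beside a median of 11 over 27305 promoters and 24.5 over the 40 tested KCN genes in the RefSeq table, which held 72 of the 97. GGGCGG, on either strand, occurred 1, 4 and 3 times (matches in KCNK5 may overlap), and in 42.3% of all promoters and 72.5% of the 40. TGGAAA, the core of the site bound by the tonicity factor NFAT5, occurred in none of the 3, in 18.3% of all promoters and in 22.5% of the 40. TATAAA occurred in none of the 3, in 11.1% of all and in 7.5% of the 40. These are matches of letters within 250 bases, and nothing is drawn from them about binding.

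KCNJ2 kept its call in all 3 comparisons under each alternative that was run. In WT cells its normalized counts (counts scaled to a common library size) were 83.2, 33.2, 69.2 and 74.3 in WT Ctr and 117, 100.4, 140.0 and 103 in WT Sor. The groups did not overlap, and the log2 fold change was 0.83 ± 0.23, adjusted p = 0.0108 (here and below ± is SE, with 4 libraries a group). WNK2- cells went from 41.7, 47.4, 69.8 and 51.6 to 121, 80.0, 110.1 and 119.7, again without overlap (1.03 ± 0.23, adjusted p = 0.00235). Transfected cells went from 44.8, 30.3, 23.6 and 33.3 to 180.5, 187, 253 and 244, the lowest and the highest group means of the gene (2.72 ± 0.24, adjusted p = 1.41e-09). With the other comparator the rise was 1.81 ± 0.25, adjusted p = 9.34e-06 in WT cells and 1.73 ± 0.23, adjusted p = 1.62e-06 in transfected cells. The larger response of transfected cells (interaction 1.89 ± 0.33, adjusted p = 8.70e-05) was not found with the comparators exchanged (-0.075 ± 0.33, adjusted p = 0.936).

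KCNC4 read 113, 75.8, 125 and 125 in WT Ctr and 204, 201, 207 and 210.3 in WT Sor, a rise of 0.90 ± 0.20, adjusted p = 0.00167 on the log2 scale. In WNK2- cells it was 216, 187, 188 and 214 without and 329.8, 416, 305 and 376 with sorbitol (0.83 ± 0.18, adjusted p = 0.00258). Neither pair of groups overlapped. In transfected cells the values were 99.5, 109, 130.4 and 123 and 247, 95.4, 191 and 161, with overlap through library WNK2 trans Sor 2. The log2 fold change there was 0.58 ± 0.20, adjusted p = 0.0170, and the call was lost in 5 of 17 alternatives, among them a correction for GC content and length and the absence of any 1 of 3 libraries (WNK2 trans Ctr 1, WNK2 trans Sor 1 or 3). KCNC4 was also higher in WNK2- than in WT cells in both media (0.87 ± 0.20, adjusted p = 0.000846 and 0.80 ± 0.19, adjusted p = 0.000987).

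KCNK5 was the lowest of the 3 in counts. It read 36.2, 7.11, 20.6 and 21.2 in WT Ctr and 41.4, 50.2, 34.5 and 52.1 in WT Sor, which overlapped by 1 library, and the call (1.06 ± 0.32, adjusted p = 0.0161) was lost without library WT Ctr 2 (0.78, adjusted p = 0.0654) and with WNK2 trans Ctr as comparator (0.86 ± 0.31, adjusted p = 0.0590). In WNK2- cells the values were 38.8, 32.8, 41.4 and 29.2 and 58.0, 70.0, 58.0 and 84.1, without overlap (0.92 ± 0.28, adjusted p = 0.0262), and the call was lost when any of 5 libraries was left out, with adjusted p up to 0.0963. In transfected cells they were 27.4, 27.9, 23.6 and 18.4 and 87.8, 55.2, 45.4 and 91.8, without overlap (1.52 ± 0.30, adjusted p = 0.000190).

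**Figure D3:**
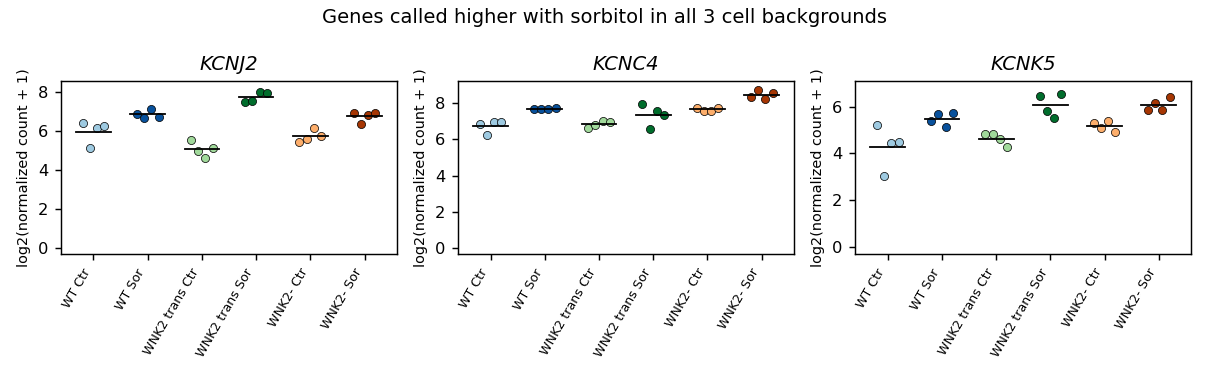
Each point is 1 library, with log2(normalized count + 1) on the vertical axis, and lines are group means of that value. In KCNJ2, KCNC4 and KCNK5 the Sor group of each pair sits above its Ctr group, with overlap in KCNC4 of transfected cells and in KCNK5 of WT cells.

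Among the pore-forming voltage-gated genes, the largest differences were between WNK2- and WT cells. KCNA3 encodes Kv1.3, best known from lymphocytes, and lies on chromosome 1 (chr1:110672465-110675033, GRCh38). Its normalized counts were 105, 110.1, 176 and 143 in WT Ctr and 166, 161, 152 and 135 in WT Sor, but 0.947, 6.38, 5.17 and 3.33 in WNK2- Ctr and 0.683, 2.50, 0.966 and 6.54 in WNK2- Sor, from 1 to 7 reads a library. Every WNK2- library was below every WT library (-5.03 ± 0.39 in isotonic medium, -5.85 ± 0.42 under sorbitol), and against WNK2 trans Ctr the isotonic difference was -5.36 ± 0.39. As the samples are bulk RNA, fewer cells with a transcript and less of it per cell cannot be told apart. Transfected cells read 233, 135, 96.7 and 211 without and 72.2, 93.3, 109.9 and 66.1 with sorbitol. The fall in transfected cells (-0.98 ± 0.27, adjusted p = 0.00451) did not pass with WT Ctr as comparator (-0.65 ± 0.27, adjusted p = 0.0629).

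KCNQ3 encodes Kv7.3, a subunit of the neuronal M-current, on chromosome 8, and it went the other way. It had 0 to 6 reads in WT Ctr (normalized 6.03, 1.18, 6.49 and 0), 1 to 4 in WT Sor and 0 to 8 in WNK2 trans Ctr. In WNK2- cells it read 76.7, 97.6, 94.8 and 105 without and 174, 149, 185 and 225 with sorbitol. No library overlapped between the genotypes in either medium, and as KCNQ3 met the filter through the WNK2- libraries, its log2 differences (4.67 ± 0.47 and 5.77 ± 0.46) are a description. Sorbitol raised it within WNK2- cells (0.97 ± 0.30, adjusted p = 0.0316), a call lost when any 1 of 7 of the 8 libraries was left out (adjusted p up to 0.119). WNK2 trans Sor held an intermediate level of 6.02, 15.1, 6.34 and 19.3 (1.85 ± 0.59, adjusted p = 0.0178 against WT Sor).

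KCNQ5, which encodes Kv7.5 of the same channel family, was high both in WNK2- cells and in transfected cells under sorbitol. It read 85.6, 121, 190.4 and 159 in WT Ctr, 167, 231, 206 and 162 in WT Sor and 126, 134, 60.7 and 125 in WNK2 trans Ctr. The values were 386, 923, 672 and 791 in WNK2 trans Sor, 448, 628, 583 and 588 in WNK2- Ctr and 765, 584, 659 and 754 in WNK2- Sor. The latter 3 groups did not overlap with the former 3. Transfected cells responded to sorbitol by 2.64 ± 0.25, adjusted p = 4.42e-09 (2.32 ± 0.25, adjusted p = 7.37e-08 against WT Ctr), and WNK2- cells exceeded WT cells by 2.01 ± 0.25, adjusted p = 3.85e-07 in isotonic medium. KCNQ1 (Kv7.1) was lower in counts, at most 27.3 normalized counts in any library. It was called higher with sorbitol in transfected cells (1.98 ± 0.40, adjusted p = 0.000227, and 1.27 ± 0.38, adjusted p = 0.00970 against WT Ctr) and in WNK2- against WT cells under sorbitol (1.18 ± 0.35, adjusted p = 0.00810).

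KCNS3 and KCNG1 encode silent subunits that form channels only together with Kv2 proteins. KCNS3 was 79.6, 46.2, 71.4 and 78.3 in WT Ctr and 90.4, 102, 108 and 93.9 in WT Sor, against 11.4, 21.0, 15.5 and 10.8 in WNK2- Ctr and 25.9, 23.3, 18.4 and 14.0 in WNK2- Sor. It was lower in WNK2- cells by a like amount in both media (-2.22 ± 0.24, adjusted p = 4.93e-08 and -2.24 ± 0.22, adjusted p = 7.80e-09). KCNG1 was 631, 664, 619.6 and 928 in WNK2 trans Ctr and 497, 193, 294 and 301 in WNK2 trans Sor, a fall without overlap (-1.15 ± 0.22, adjusted p = 0.000105, and -0.81 ± 0.22, adjusted p = 0.00443 against WT Ctr). It was 702, 361, 499 and 685 in WT Ctr and 925, 980.5, 880.1 and 949 in WNK2- Ctr (0.73 ± 0.21, adjusted p = 0.00654), a call lost against WNK2 trans Ctr (0.39 ± 0.21, adjusted p = 0.124).

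The KCNH genes encode the channels related to ether-a-go-go, and they did not move as a block. KCNH1 (Eag1) was 88.3, 57.4, 37.1 and 79.3 in WNK2 trans Ctr and 169.7, 285, 300.1 and 304 in WNK2 trans Sor, higher in each sorbitol library (2.03 ± 0.22, adjusted p = 5.02e-08). Its higher level in WNK2- than in WT cells in isotonic medium (0.59 ± 0.22, adjusted p = 0.0320), where the groups overlapped, was lost in 6 of 17 alternatives: the correction for GC content and length, and the absence of any 1 of 5 libraries (WT Ctr 1 or 3, WNK2- Ctr 2, 3 or 4). Against WNK2 trans Ctr this difference was larger (1.03) and kept its call. As 53.0% of the exonic bases of KCNH1 are shared with overlapping clone-named genes, its counts are uncertain. KCNH3 (Elk2) moved in the opposite direction there, from a range of 230.1 to 330.2 in WNK2 trans Ctr to 21.1 to 78.2 in WNK2 trans Sor (-2.52 ± 0.23, adjusted p = 2.76e-09), and was lower in WNK2- than in WT cells in both media (-1.68 ± 0.23, adjusted p = 1.93e-06 and -2.17 ± 0.24, adjusted p = 3.99e-08). With the other isotonic comparator the KCNH3 values were -1.89 ± 0.24, adjusted p = 7.82e-07 for sorbitol and -2.31 ± 0.23, adjusted p = 6.13e-09 for WNK2- cells. KCNH2 (hERG), at 8.29 to 37.0 in WT cells, was 52.6 to 80.0 in WNK2- cells (1.90 ± 0.33, adjusted p = 4.42e-05 and 1.31 ± 0.30, adjusted p = 0.000871). KCNA7 (Kv1.7) was called higher with sorbitol in WT cells, from 13.3, 4.74, 18.4 and 19.9 to 35.9, 49.0, 21.3 and 22.5 (1.18 ± 0.42, adjusted p = 0.0441), and lost the call in 9 alternatives, one of them the exchange of comparator (0.55 ± 0.40, adjusted p = 0.404).

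**Figure D4:**
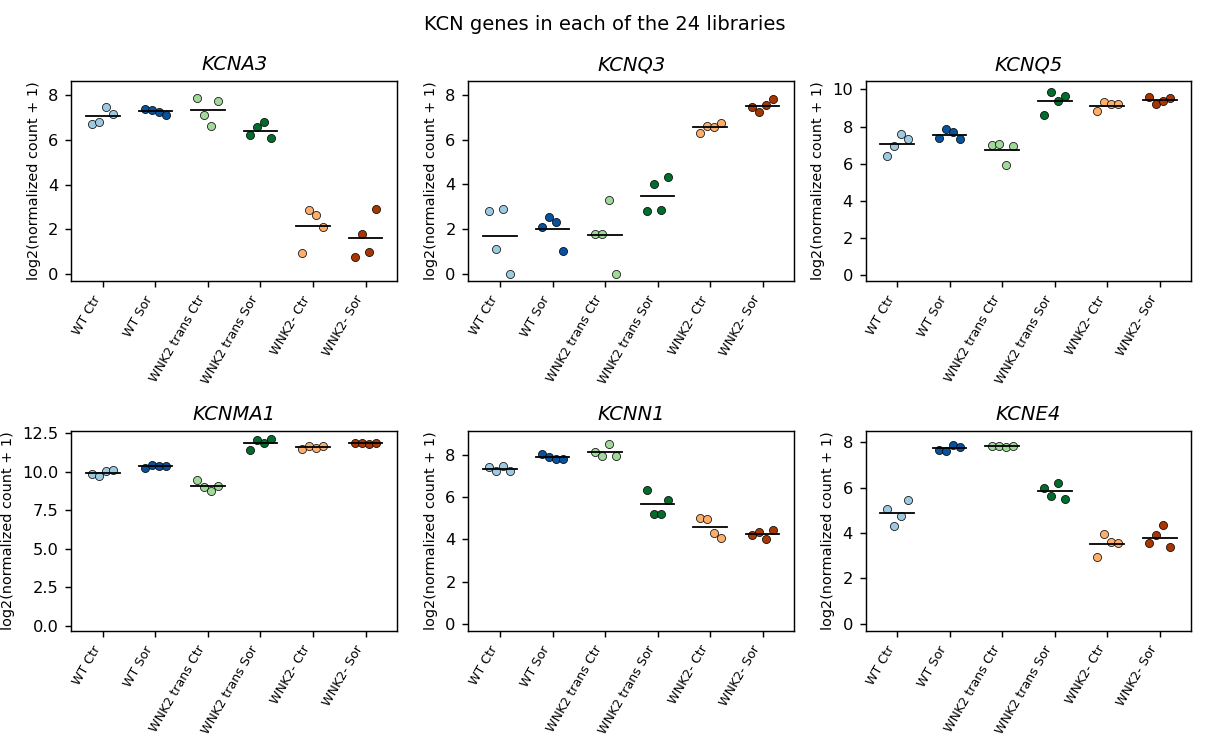
Each point is 1 library, with log2(normalized count + 1) on the vertical axis, for 6 KCN genes; lines are group means of that value. KCNA3 and KCNN1 are low and KCNQ3 high in both WNK2- groups, KCNQ5 and KCNMA1 are high in WNK2 trans Sor and both WNK2- groups, and KCNE4 is high in WT Sor and WNK2 trans Ctr.

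KCNMA1 forms the BK channel, opened by Ca2+ and voltage together, and it had the most reads of any KCN gene. It lies on chromosome 10 (chr10:76869601-77638369, GRCh38, minus strand). Its values were 929.7, 837, 1036 and 1094 in WT Ctr, 1224, 1394, 1353 and 1309.9 in WT Sor and 694, 526, 433 and 541 in WNK2 trans Ctr, against 2665, 4296, 3760.1 and 4363 in WNK2 trans Sor, 2827, 3281, 2995 and 3245 in WNK2- Ctr and 3673, 3718, 3518 and 3719 in WNK2- Sor. As with KCNQ5, the latter 3 groups lay above the former 3 in every library. Sorbitol raised KCNMA1 in transfected cells (2.78 ± 0.14, adjusted p = 2.68e-14, and 1.95 ± 0.13, adjusted p = 3.37e-11 against WT Ctr). In WT cells the rise was small (0.44 ± 0.13, adjusted p = 0.0163). It was larger against WNK2 trans Ctr (1.27 ± 0.13, adjusted p = 2.12e-07), and it was lost without library WT Ctr 2 (0.38, adjusted p = 0.0624) and after correction for GC content and length (0.045, adjusted p = 0.695). WNK2- cells exceeded WT cells in both media (1.66 ± 0.13, adjusted p = 2.51e-10 and 1.47 ± 0.13, adjusted p = 1.14e-09), with an isotonic difference of 2.49 ± 0.14, adjusted p = 1.24e-13 against WNK2 trans Ctr, and in WNK2- cells sorbitol gave 0.24, which did not pass.

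The small-conductance channels of the KCNN family, opened by Ca2+ through calmodulin, went in different directions. KCNN1 (SK1, chr19:17951293-18000080, GRCh38) was 170.0, 148, 177 and 149 in WT Ctr, 259, 239, 223 and 219.5 in WT Sor and 282, 247, 362 and 247 in WNK2 trans Ctr. It was 80.6, 36.1, 35.9 and 57.8 in WNK2 trans Sor, 31.3, 30.1, 19.0 and 15.8 in WNK2- Ctr and 17.8, 19.2, 15.5 and 20.6 in WNK2- Sor, so that the 2 sets of 3 groups were again apart in every library, here with the order turned round. WNK2- cells were lower than WT cells in both media (-2.75 ± 0.23, adjusted p = 5.84e-10 and -3.68 ± 0.23, adjusted p = 2.14e-12, the former -3.57 ± 0.23, adjusted p = 2.51e-12 against WNK2 trans Ctr), and transfected cells fell with sorbitol (-2.44 ± 0.21, adjusted p = 8.50e-10, and -1.62 ± 0.21, adjusted p = 1.73e-06 against WT Ctr). In WT cells a small rise (0.54 ± 0.19, adjusted p = 0.0432) changed sign against WNK2 trans Ctr (-0.27 ± 0.19, adjusted p = 0.374). KCNN2 (SK2) was scarce in WT cells, with 0 to 8 reads, and had 15 to 48 reads in WNK2- cells, through which it met the filter (log2 differences of 3.20 ± 0.61 and 2.61 ± 0.49, given as a description). KCNN3 (SK3) was lower in WNK2- than in WT cells in both media (-0.66 ± 0.16, adjusted p = 0.00203 and -0.96 ± 0.17, adjusted p = 4.29e-05; the former did not pass against WNK2 trans Ctr, -0.32 ± 0.16, adjusted p = 0.110) and fell further with sorbitol (-0.71 ± 0.17, adjusted p = 0.00399).

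KCNN4 encodes the intermediate-conductance channel KCa3.1, which carries the K+ efflux of volume decrease in red and white blood cells. It was 215, 168, 145 and 187 in WT Ctr and 292, 276, 281 and 281 in WT Sor, without overlap (0.66 ± 0.16, adjusted p = 0.00381, and 0.57 ± 0.16, adjusted p = 0.0147 against WNK2 trans Ctr). Transfected cells went from 177, 178, 197 and 209 to 363, 186, 283 and 352 (0.64 ± 0.16, adjusted p = 0.00179). In WNK2- cells the values were 171, 138, 158 and 153 and 158, 203, 188 and 166, and the difference of 0.21 did not pass. The 2 responses in WT and WNK2- cells were not shown to differ (interaction -0.46 ± 0.23, adjusted p = 0.222), while under sorbitol WNK2- cells were below WT cells (-0.66 ± 0.16, adjusted p = 0.00123). Of the Na+-activated channels, KCNT1 (Slack) rose with sorbitol in WT cells from 10.9, 3.55, 19.5 and 11.9 to 33.8, 32.3, 20.3 and 30.6 (1.33 ± 0.37, adjusted p = 0.0109), a call lost against WNK2 trans Ctr (0.64 ± 0.35, adjusted p = 0.238). KCNT2 (Slick) had 14, 22, 10 and 11 reads in WNK2 trans Ctr and 0 in all 4 libraries of WNK2 trans Sor. WT Sor held 3, 1, 7 and 12.

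Among the inward rectifiers, KCNJ4 (Kir2.3) had high and low groups like those of KCNN1, and unlike those of KCNJ2 of its own subfamily. It was 96.5, 20.1, 63.8 and 88.9 in WT Ctr, 132, 109, 95.4 and 124 in WT Sor and 131, 98.3, 155 and 141 in WNK2 trans Ctr. It was 27.7, 19.1, 23.2 and 20.2 in WNK2 trans Sor, 24.6, 31.0, 32.8 and 34.2 in WNK2- Ctr and 5.46, 15.8, 12.6 and 11.2 in WNK2- Sor. Library WT Ctr 2 lay among the low values and the other WT Ctr libraries did not. With sorbitol KCNJ4 fell in WNK2- cells (-1.46 ± 0.36, adjusted p = 0.00599) and in transfected cells (-2.54 ± 0.32, adjusted p = 3.93e-07, and -1.58 ± 0.33, adjusted p = 0.000457 against WT Ctr), and in WT cells it gave 0.77, which did not pass. The responses of WNK2- and WT cells differed (interaction -2.24 ± 0.46, adjusted p = 0.00286), but not with the comparators exchanged (-1.27 ± 0.45, adjusted p = 0.152).

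KCNJ11 encodes Kir6.2, the pore of ATP-sensitive channels, and its paralogue KCNJ8 (Kir6.1), another pore subunit, had at most 5 reads in a library and was not tested. KCNJ11 was 82.1, 80.3, 64.1 and 68.9 in WNK2 trans Ctr and 128, 107, 115 and 108 in WNK2 trans Sor (0.63 ± 0.18, adjusted p = 0.00619), and against WT Ctr the difference did not pass (0.36 ± 0.18, adjusted p = 0.123). KCNJ12 (Kir2.2), from 310.9 to 351.6 in WNK2 trans Ctr, was 83.3 to 190.1 in WNK2 trans Sor (-1.32 ± 0.16, adjusted p = 3.26e-07), with the limit that reads may be split with its near-copy KCNJ18. KCNJ16 (Kir5.1) had 11, 15, 19 and 14 reads in WT Sor. It had 0 in all libraries of WNK2 trans Ctr, 1 read over all of WT Ctr, 1 over WNK2- Ctr and 2 over WNK2- Sor, and 0, 0, 0 and 10 in WNK2 trans Sor. In WNK2 trans Sor its reads, and 16 of the 19 reads of KCNJ3 in the whole series, came from library 4 alone.

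The tandem-pore genes encode leak channels. KCNK6 (TWIK-2) was 247, 254, 247 and 241 in WNK2- Ctr and 336, 365, 351 and 317 in WNK2- Sor, a rise without overlap (0.47 ± 0.11, adjusted p = 0.00387). In transfected cells it fell from 398, 351, 395 and 375 to 320.1, 217, 286 and 276 (-0.47 ± 0.11, adjusted p = 0.00118, and -0.36 ± 0.11, adjusted p = 0.0121 against WT Ctr). KCNK1 (TWIK-1) was the only KCN gene called lower with sorbitol in WT cells, from 73.6, 122, 129 and 95.6 to 84.9, 60.9, 65.9 and 75.6, with overlap (-0.55 ± 0.20, adjusted p = 0.0499). That call was lost in 12 alternatives, the exchange of comparator included (-0.35 ± 0.20, adjusted p = 0.267). Under sorbitol KCNK1 was higher in WNK2- than in WT cells (0.76 ± 0.20, adjusted p = 0.00275). KCNK2 (TREK-1), a stretch-sensitive channel, had 0 to 26 reads a library. It was higher in WNK2 trans Ctr (11 to 26 reads) than in WT Ctr (0 to 4; 2.76 ± 0.67, adjusted p = 0.00625), and its fall with sorbitol in transfected cells (-2.63 ± 0.64, adjusted p = 0.00151) did not pass against WT Ctr (0.12 ± 0.81, adjusted p = 0.919).

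KCNE4, an auxiliary subunit that inhibits several voltage-gated channels, among them Kv1.3 and Kv7.1, had the largest called change with sorbitol in WT cells among KCN genes averaging at least 0 log2 CPM. It lies on chromosome 2 (chr2:223051814-223198399, GRCh38). It was 32.6, 18.9, 26.0 and 42.5 in WT Ctr and 204, 198, 232 and 221 in WT Sor, without overlap (2.84 ± 0.22, adjusted p = 8.77e-10). In transfected cells it was 225, 228, 219 and 231 without and 62.6, 48.2, 72.9 and 45.0 with sorbitol, the opposite order (-1.99 ± 0.20, adjusted p = 9.47e-09). In WNK2- cells it was 6.63, 14.6, 11.2 and 10.8 and 10.9, 14.2, 19.3 and 9.35, and the difference of 0.29 did not pass. WNK2- cells were below WT cells in both media (-1.45 ± 0.27, adjusted p = 0.000115 and -3.99 ± 0.23, adjusted p = 2.74e-13), and in isotonic medium by -4.36 ± 0.24, adjusted p = 9.48e-14 against WNK2 trans Ctr.

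Both sorbitol responses of KCNE4 in cells of WT genotype rest on which control libraries are taken. Against WNK2 trans Ctr, WT Sor differed by -0.079 ± 0.18, adjusted p = 0.831, and against WT Ctr, WNK2 trans Sor was higher (0.93 ± 0.23, adjusted p = 0.00199). The interaction of genotype and sorbitol (-2.55 ± 0.37, adjusted p = 5.18e-05) became 0.37 ± 0.34, adjusted p = 0.732 with the comparators exchanged, and that of transfection and sorbitol (-4.82 ± 0.29, adjusted p = 3.38e-12) became 1.01 ± 0.29, adjusted p = 0.0393. Comparisons within sorbitol medium use neither control group. There KCNE4 was lower in WNK2- than in WT cells, as given above, and lower in transfected than in untransfected cells (-1.91 ± 0.20, adjusted p = 6.47e-08).

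Of the other auxiliary genes, KCNAB3, a cytoplasmic beta subunit of Kv1 channels, was 298, 208, 272 and 277 in WT Ctr, 285, 279.6, 288 and 322 in WT Sor, 120.3, 98.5, 101 and 86.6 in WNK2- Ctr and 53.9, 69.2, 49.3 and 44.9 in WNK2- Sor. It fell with sorbitol in WNK2- cells (-0.90 ± 0.16, adjusted p = 0.000367) and gave 0.16 in WT cells, which did not pass, and the responses differed (interaction -1.05 ± 0.22, adjusted p = 0.00333, and -0.86 ± 0.22, adjusted p = 0.0260 with the comparators exchanged). KCNIP4, a Ca2+-binding partner of Kv4 channels, ranged from 15.7 to 27.0 in transfected cells without sorbitol, and from 67.4 to 139 with it (2.39 ± 0.29, adjusted p = 2.49e-07, and 1.53 ± 0.27, adjusted p = 9.49e-05 against WT Ctr). KCNIP3 was higher in WNK2- than in WT cells in both media (1.13 ± 0.17, adjusted p = 9.29e-06 and 0.50 ± 0.17, adjusted p = 0.0169). KCNMB4, a beta subunit of the BK channel, was 8.44, 39.1, 21.6 and 23.9 in WT Ctr and 6.63, 1.82, 5.17 and 8.33 in WNK2- Ctr (-2.05 ± 0.54, adjusted p = 0.00320), opposite to KCNMA1 in that comparison. Under sorbitol the difference in KCNMB4 did not pass (-0.72 ± 0.48, adjusted p = 0.233).

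Among the remaining genes, KCNG2, another silent partner of Kv2, was higher than in WT Ctr in each of WT Sor (0.75 ± 0.17, adjusted p = 0.00226), WNK2 trans Ctr (0.81 ± 0.17, adjusted p = 0.00170) and WNK2- Ctr (0.80 ± 0.17, adjusted p = 0.000450), and neither WT Sor (-0.060 ± 0.16, adjusted p = 0.857) nor WNK2- Ctr (-0.012 ± 0.16, adjusted p = 0.960) passed against WNK2 trans Ctr. KCNS1, of the same group of silent subunits, was higher in WNK2- than in WT cells in both media (1.03 ± 0.31, adjusted p = 0.00913 and 1.25 ± 0.30, adjusted p = 0.00135, the former 1.71 ± 0.32, adjusted p = 0.000102 against WNK2 trans Ctr), opposite to KCNS3. KCNC1 (Kv3.1) fell with sorbitol in transfected cells (-1.15 ± 0.20, adjusted p = 3.76e-05, and -0.54 ± 0.20, adjusted p = 0.0371 against WT Ctr), where KCNC4 of the same subfamily was called higher. KCNA2 (Kv1.2) was lower in WNK2- cells in both media (-2.08 ± 0.66 and -2.91 ± 0.68, the former -2.67 ± 0.64 against WNK2 trans Ctr), as KCNA3 was. KCNK13 (THIK-1), a tandem-pore channel, was lower there too (-1.73 ± 0.55, adjusted p = 0.0134 and -1.42 ± 0.52, adjusted p = 0.0262). KCNJ14 (Kir2.4), whose group means varied by 1.40-fold in all, fell with sorbitol in WNK2- cells (-0.43 ± 0.14, adjusted p = 0.0436).

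The comparisons of WNK2- with WT cells in the 2 media share no library. In both media 9 KCN genes were called higher (KCNC4, KCNH1, KCNH2, KCNIP3, KCNMA1, KCNN2, KCNQ3, KCNQ5 and KCNS1) and 10 lower (KCNA2, KCNA3, KCNAB3, KCNE4, KCNH3, KCNJ4, KCNK13, KCNN1, KCNN3 and KCNS3), and none was called in opposite directions. Opposite calls were also rare over all genes, at 85 of 16600, so nothing is drawn from their absence here. KCNQ3 and KCNN2 met the filter through the WNK2- libraries and KCNA2 and KCNA3 through the others, and the isotonic call of KCNH1 was lost in 6 of 17 alternatives. With WNK2 trans Ctr in place of WT Ctr the counts were 12 higher and 11 lower, again with none opposite, and of the 19 genes KCNN3 alone was not among them. The share of all genes was not computed with that comparator. With WT Ctr the shares called higher and lower in both media were 16.4% and 18.2% of the 55, beside 14.0% and 14.8% of all genes tested. They include KCNN2, KCNQ3, KCNA2 and KCNA3, whose calls follow in part from the filter, so nothing is drawn from their excess. The comparisons of transfected with untransfected cells in the 2 media likewise share no library, and there the calls went the other way round: 8 KCN genes were called in both and all 8 in opposite directions (KCNC1, KCND1, KCNE4, KCNH3, KCNJ2, KCNJ4, KCNMA1 and KCNN1). Over all genes, 1389 were called in both and 1341 of them in opposite directions. These counts rest on both isotonic groups of WT genotype: exchanging those groups turns the sign of every isotonic value, so that the 8 genes then have 1 direction in both media.

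**Figure D5:**
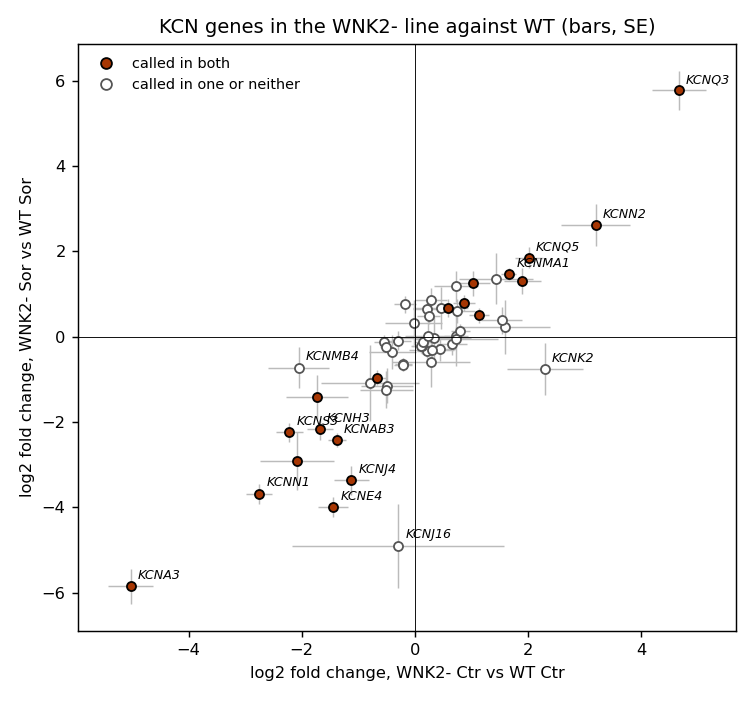
Each point is 1 of the 55 tested KCN genes, with its log2 fold change between WNK2- and WT cells in isotonic medium on the horizontal axis and under sorbitol on the vertical axis; bars are SE and filled points were called in both media. KCNQ3 (4.67 and 5.77) and KCNA3 (-5.03 and -5.85) lie at the ends, and no filled point lies in the quadrants of opposite sign.

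The 25 tested genes on either side on the chromosome were looked at for each tested KCN gene. The median log2 fold change of the 50 neighbours between WNK2- and WT cells was -0.03 around KCNA3, 0.01 around KCNE4, 0.10 around KCNN1 and -0.04 around KCNS3 in isotonic medium, and 0.02, -0.03, -0.21 and 0.09 under sorbitol. Around KCNQ3 it was 0.38 and 0.40, in the direction of KCNQ3, and around KCNAB3 -0.41 and -0.64, in the direction of KCNAB3. Copy number was not measured, and the part of these regional shifts in the results was not tested.

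A list of other K+-transporting proteins and channel partners (Na+/K+-ATPase and H+/K+-ATPase subunits, HCN channels, sulphonylurea receptors and others), 32 genes of which 13 were tested, was called in 8 of 13 between WNK2- and WT cells in isotonic medium (4 higher, 4 lower, beside 42.1% of all genes) and in 10 under sorbitol (5 and 5, beside 46.3%). Sorbitol called 2 higher in WT cells (beside 24.1% of all genes called in either direction), 3 higher and 2 lower in WNK2- cells (beside 14.9%), and 3 higher and 5 lower in transfected cells (beside 48%). ATP1B1, the beta-1 subunit of the Na+/K+ pump, rose with sorbitol in WT cells (1.21 ± 0.082, adjusted p = 1.18e-10) and in WNK2- cells (0.56 ± 0.081, adjusted p = 2.18e-05) and fell in transfected cells (-0.66 ± 0.081, adjusted p = 2.63e-07), and was higher in WNK2 trans Ctr than in WT Ctr (1.00 ± 0.081, adjusted p = 2.60e-09). With the other isotonic comparator transfected cells rose instead (0.34 ± 0.081, adjusted p = 0.00183), and the rise in WT cells did not pass (0.21 ± 0.080, adjusted p = 0.0859). ATP1B2, another beta subunit, and AMIGO1, a partner of Kv2 channels, were lower in WNK2- than in WT cells in isotonic medium (-3.36 ± 0.16, adjusted p = 1.73e-14 and -2.59 ± 0.15, adjusted p = 5.01e-13) and under sorbitol (-2.75 ± 0.15, adjusted p = 7.46e-14 and -3.05 ± 0.15, adjusted p = 2.04e-14), and by -4.12 ± 0.16, adjusted p = 1.51e-16 and -2.82 ± 0.15, adjusted p = 4.06e-14 in isotonic medium against WNK2 trans Ctr. HCN4, a cation channel of pacemaker cells, was higher (2.24 ± 0.41, adjusted p = 0.000100 and 1.75 ± 0.41, adjusted p = 0.00101).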

How the data were processed

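The data used here are 24 libraries in 6 groups of 4. Novogene extracted and sequenced the RNA, per the paper. The authors deposited 1 table of whole-number read counts per Ensembl gene for each library. Per the labels, the submitters' processing notes name HISAT2 2.2.1, HTSeq 2.0.2, DESeq2 1.38.3, FastQC 0.11.9 and GRCh38; the annotation release and the strand setting of the counter are not given in the sources used here, so overlapping and antisense genes are uncertain. Symbols, positions and lengths were taken from GENCODE 29, which held 58279 of 62703 identifiers, and promoters from RefSeq (GRCh38.p14). The members and gene lists were chosen with earlier results of these data known.

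The deposited counts were tested with edgeR 4.0.16 in R 4.3.3: filterByExpr (minimum count 10, minimum total 15) kept 16600 genes, TMM factors scaled the libraries, 6 group means were fitted over all 24 libraries by quasi-likelihood, and p-values were adjusted by Benjamini-Hochberg over all genes kept. SE is the size of the log2 fold change divided by the square root of F. To normalize, each count was scaled to the mean effective library size. The interactions are the sorbitol response of WNK2- or transfected cells minus that of WT cells. Where a control group was exchanged, WT Ctr and WNK2 trans Ctr took each other's place. Depth was 14153002 to 25664619 reads a library (median 17506506); low counts limit the precision of genes near the filter.

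Named genes were, per pairwise comparison, up to 4 called KCN genes with the largest change, an average of at least 0 log2 CPM and no overlap between groups; per interaction, up to 4 with the smallest p; and a fixed group (KCNMA1, KCNN4, KCNK1, KCNK2, KCNK5, KCNK6, KCNJ8, KCNJ11, KCNQ1, KCNE3, KCNE4, KCNMB4, KCNH1, KCNG1). Others, such as KCNA2, KCNC1, KCNG2, KCNJ14, KCNK13, KCNS1, KCNC4, KCNH2, KCNH3, KCNIP3, KCNIP4, KCNJ12, KCNJ16, KCNN2, KCNN3 and KCNT2, were named after their values were seen. Alternatives were DESeq2 1.42.0, upper-quartile factors, other filters on low counts, only the compared groups, a replicate block, a correction for GC content and length, the exchange of control groups and leaving out each library. The scripts were tested on simulated data. Replicates were separate libraries, as each pair differed beyond sampling noise (chi-square per degree of freedom 2.30 to 68.4 over 36 pairs). Values of some genes are not reported here.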

Additional observations from a re-analysis of the deposited data

Results flagged for a closer look

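Among 138 combinations of gene and group, 5 held a library that stood apart from the other 3 by Dixon's criterion, and chance gives about 1 in 20. KCNG1 was at 928 normalized counts in WNK2 trans Ctr 4, against 619.6 to 664 in the others. KCNQ5 was at 60.7 in WNK2 trans Ctr 3, against 125 to 134, and KCNH1 at 169.7 in WNK2 trans Sor 1, against 285 to 304. In WNK2- Ctr, KCNQ1 was at 20.8 in library 4, against 12.3 to 12.9, and KCNT1 at 21.9 in library 2, against 37.0 to 38.3.

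The response to sorbitol differed between WNK2- and WT cells in edgeR's interaction test for KCNAB3 (-1.05), KCNE4 (-2.55), KCNJ4 (-2.24), KCNK2 (-3.06) and KCNK1 (0.93), on the log2 scale. The KCNK2 call was lost in 13 of 23 alternatives and that of KCNK1 in 14 of 25, the replicate block and most omissions of 1 library among them, with adjusted p up to 0.935 and 0.196. With WNK2 trans Ctr in place of WT Ctr, KCNAB3 passed (-0.86), KCNE4 turned to 0.37 without passing, and KCNJ4 (-1.27), KCNK2 (-0.30) and KCNK1 (0.73) did not pass.

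Between transfected and untransfected cells the response differed for KCNE4 (-4.82), KCNK2 (-4.31), KCNJ4 (-3.31), KCNN1 (-2.98), KCNG1 (-1.33), KCNK6 (-0.67), KCNK1 (0.84), KCNQ1 (1.63), KCNH1 (1.67) and KCNMA1 (2.34), among the named genes. The KCNQ1 call was lost in 10 of 24 alternatives and that of KCNK1 in 6 of 25, omissions of 1 library among them, with adjusted p up to 0.906 and 0.417. With the 2 control groups exchanged, KCNN1 (-1.35) and KCNMA1 (0.68) passed in the same direction and KCNE4 passed in the opposite one (1.01), while KCNK2 turned to 1.20 without passing and the other 6 did not pass: KCNJ4 (-1.39), KCNG1 (-0.65), KCNK6 (-0.46), KCNK1 (0.45), KCNQ1 (0.19) and KCNH1 (0.80). The WNK2 reads of these 2 control groups go against their labels, and which labels are right was not tested.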

How the results depend on the processing

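Of the values of named genes under the alternatives, 2204 stayed on the same side of the threshold. Without a change of sign, 108 no longer passed and 38 newly passed. Another 8 changed sign where the main or the alternative fit passed. A change of sign where neither fit passed is counted among the 2204. With only the compared groups in the fit, KCN genes called numbered 4 for transfection in isotonic medium (8.7%, beside 5.22% of all genes), 20 for sorbitol in WNK2- cells (43.5%, beside 30.9%) and 9 for the interaction of genotype and sorbitol (17% beside 12.5%). With at least 10 counts in every library, 27 genes were tested and the counts were 19 for sorbitol in transfected cells (beside 51.7% of all genes), 15 and 16 for WNK2- against WT cells without and with sorbitol (46.6% and 51.8%), 9 for sorbitol in WT cells (28.4%) and 2 for the genotype interaction (12.3%); 85 genes had a read in any library. With the control groups exchanged, the genotype interaction called 2 (beside 3.39% of all genes) and the transfection interaction 6 (beside 5.46%). Replicate numbers are not said to pair the libraries: same-numbered libraries correlated at -0.29 to 0.46 (median 0.01), 11 of 24 best with their own number. A fit with the replicate number as a block called 3 genes in the genotype interaction (share of all genes not given here), and moved no other count by over 1.5 times.

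Leaving out each library in turn gave 6 to 11 calls for transfection in isotonic medium (6 without WNK2 trans Ctr 4 or WT Ctr 3), 19 to 26 for transfection under sorbitol, 29 to 33 for sorbitol in transfected cells, 7 to 10 in WNK2- cells and 9 to 16 in WT cells (9 without WT Ctr 2). It gave 25 to 28 and 24 to 29 for WNK2- against WT cells without and with sorbitol, 25 to 31 for the transfection interaction and 3 to 7 for the genotype interaction (3 without WNK2- Ctr 2 or 3, WNK2- Sor 3 or 4, WT Ctr 2 or 3, or WT Sor 2, 3 or 4). The share of all genes called moved too. For transfection in isotonic medium it was 8.79% without WNK2 trans Ctr 4, 9.86% without WT Ctr 3 and 15.8% without WT Ctr 1 (11 calls). For transfection under sorbitol it was 23.9% at 19 calls (without WNK2 trans Sor 2) and 39.1% at 26 (without WNK2 trans Sor 1). For the other ranges the share is not given here, and nothing particular to KCN genes is drawn from any of the ranges. Sign changes with exchanged controls are given where the main or the exchanged fit passed. For KCNE4 they were 0.93 (sorbitol in transfected cells), -0.079 (in WT cells), 0.37 (genotype interaction) and 1.01 (transfection interaction). For KCNK2 they were 0.12 (sorbitol in transfected cells), -0.46 (WNK2- against WT in isotonic medium) and 1.20 (transfection interaction). After correction for GC content and length the transfection interaction of KCNN4 was 0.59. The cause was not tested. DESeq2 gave no adjusted p for 10 KCN genes in the genotype interaction.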
